A study of Homo sapiens with 12 samples.

Results

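The enzymes described here make serine, glycine, folate-bound one-carbon units and asparagine. They are 10 genes taken by name from 23195 genes in the authors' deposited tables: PHGDH, PSAT1, PSPH, SHMT1, SHMT2, MTHFD2, MTHFD1L, ALDH1L2, PCK2 and ASNS. They were chosen by name with their log2 fold changes in these comparisons already known, so the counts of members that changed, and their adjusted p-values, are given as a description. RNA was measured by polyA sequencing in HCT116, a human colorectal carcinoma line with intact p53. The 4 groups had 3 libraries each: siControl with DMSO (called the control), siControl with Nutlin-3a (Nutlin-3a alone), siRFX7 with DMSO (siRFX7 alone) and siRFX7 with Nutlin-3a (both treatments). Nutlin-3a, which blocks MDM2 and thereby stabilizes p53, was given at 10 µM for 24 h, and DMSO was its solvent. All 4 groups were transfected with an siRNA, either a control or one against the transcription factor RFX7. The labels give neither the siRNA sequences nor how many siRNAs were directed at RFX7, and nothing in them says that the replicates were separate cultures, so the p-values measure only the spread between these libraries.

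Serine is made in the cytosol from the glycolytic intermediate 3-phosphoglycerate by PHGDH, PSAT1 and PSPH, acting in that order. Serine hydroxymethyltransferase, SHMT1 in the cytosol and SHMT2 in mitochondria, then splits serine into glycine and a one-carbon unit carried by folate. In mitochondria MTHFD2 and MTHFD1L turn that unit into formate, which is exported and used in the cytosol for purine and thymidylate synthesis, while ALDH1L2 oxidizes it to carbon dioxide and yields NADPH. PCK2 makes phosphoenolpyruvate from oxaloacetate in mitochondria, and ASNS makes asparagine from aspartate and glutamine. Many of these genes are known targets of ATF4, the transcription factor induced when amino acids run short or the endoplasmic reticulum is stressed.

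The response element that ATF4 binds together with C/EBP proteins is written TGATGNAA, with TGATGCAA as its strict form. RFX factors bind elements that hold the core letters GTTGCCA. These letters were searched on both strands of RefSeq promoter windows of GRCh38.p14, which run from 250 bases before to 50 bases after a start. Of the 10 genes 7 had a window, and PSPH, SHMT2 and ALDH1L2 were missing from the table. TGATGNAA was found for 2 of the 7 genes, ASNS and MTHFD1L, and in 3.62% of all 35116 windows. ASNS had 2 windows and the match was not in both, so its start given below is that of the window with the match. TGATGCAA, whose matches are also matches of TGATGNAA, was found for MTHFD1L and in 0.866% of windows. GTTGCCA was found for PHGDH and in 4.08% of windows. These shares count windows and not genes, and a gene with several windows, such as MTHFD1L with 4, has more chances of a match. The 30 bases around each match are shown 5′ to 3′ on the gene's strand, with the match in capitals, because these are the stretches of the members' promoters that hold the searched letters.
ASNS, chr7:97872458-97872487, minus strand, 68 bases before the start: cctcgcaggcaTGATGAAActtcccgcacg
MTHFD1L, chr6:150866346-150866375, plus strand, 129 and 90 bases before 2 of its starts and just after the most upstream of the 3 starts whose windows hold it: gccgccggctcTGATGCAAtcgcgccgggc
PHGDH, chr1:119711794-119711823, plus strand, 129 bases before the start, with GTTGCCA read on the opposite strand: gggcagggattTGGCAACctcagagccgcg
A match describes these letters only and is not a measured binding site.

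The values used were the authors' 4 result tables, which hold a mean normalized count over all libraries and, for each comparison, a log2 fold change with its standard error (SE). The mean of each group, in normalized counts, was computed from these, while values of single libraries were not used here. A gene was called changed at a DESeq2 adjusted p below 0.05 in the authors' deposited table. RFX7 had group means of 944 and 1332 normalized counts with siControl in DMSO and in Nutlin-3a, and of 185 and 302 with siRFX7. The epithelial markers EPCAM, CDH1, KRT8 and KRT18 were expressed in every group, while VIL1 was at group means of 3.67 to 17.5. They moved with the treatments: Nutlin-3a alone left EPCAM at 70.1% of the control and took CDH1, KRT8 and KRT18 to 143%, 221% and 190.0%, all 4 called in the authors' deposited table. The leukocyte and endothelial markers PTPRC, CD3E and PECAM1 were not listed. Of the fibroblast genes, COL1A2 averaged only 1.42 normalized counts over all libraries and was not listed in the siRFX7 comparisons. COL1A1 was at 349 to 515 normalized counts. It was called higher with siRFX7 in the authors' deposited tables, by a log2 value of 0.36 without Nutlin-3a and of 0.52 with it. The part of these movements in the results was not tested. In these bulk libraries a change in a gene's count can come from a different mix of cells or from less RNA per cell, which cannot be told apart.

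Of the 10 genes, 8 had their highest group mean in the control and their lowest under both treatments, the exceptions being PSPH and ALDH1L2. Among the 19393 genes in all 4 tables, 17.9% had that order of group means. Nutlin-3a lowered 8 of the 10 genes in siControl cells, where 21.2% of all genes were called lower in the authors' deposited table, and raised none, where 22.0% of all genes were called higher. In siRFX7 cells the same drug lowered 8 and raised 1, against 19.7% and 21.7% of all genes called lower and higher. Without Nutlin-3a, siRFX7 lowered 9 of 10 and raised none, against 15.5% and 13.5% of all genes called lower and higher. With Nutlin-3a, siRFX7 lowered 7 and raised 1, against 13.6% and 15.0% of all genes. The median log2 fold changes of the 10 genes in these 4 comparisons were -1.18, -0.49, -0.86 and -0.27, where the medians over all genes were 0.02, -0.02, -0.003 and 0.002. Both siRFX7 comparisons, which share no library, called the same 7 genes lower: PHGDH, PSAT1, SHMT2, MTHFD2, MTHFD1L, PCK2 and ASNS. Of all genes 8.34% were called lower in both. The Nutlin-3a comparisons, which share no library either, called the same 8 genes lower, these 7 and SHMT1, against 15.9% of all genes. After rescaling the groups to equal totals, the siRFX7 comparison in DMSO called 3391 genes higher and 2262 lower, where the deposited scaling gave 2704 and 3107. That rescaling moved the log2 fold change of every gene up by 0.06.

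**Figure D1:**
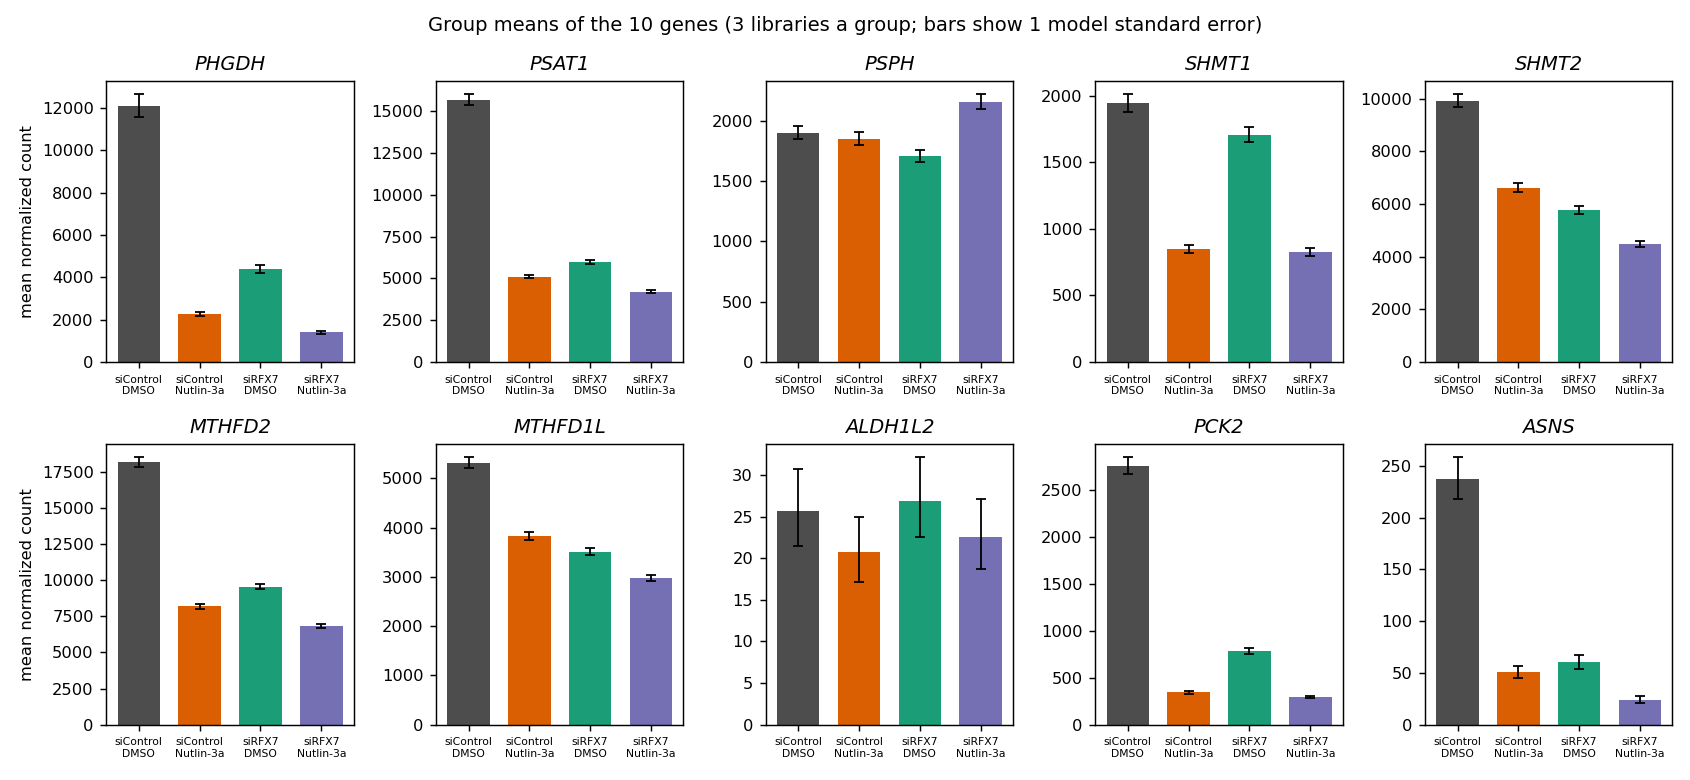
Group means of the 10 genes in normalized counts (linear axes from 0, one per gene) for the 4 groups of 3 libraries, with bars of 1 model SE. The control bar is the highest in 8 panels, PSPH stays between 1706 and 2159, and ALDH1L2 lies below 30 normalized counts in every group.

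PHGDH (ENSG00000092621, chr1:119648411-119744226, plus strand) encodes the enzyme of the first step of serine synthesis. Its mean was 12103 normalized counts in the control, 4392 under siRFX7 alone, 2271 under Nutlin-3a alone and 1402 under both treatments. Each treatment alone took the level below the control, Nutlin-3a further than siRFX7, and both together gave the lowest level, 8.63-fold below the control. The authors' deposited tables gave log2 fold changes of -2.41 (SE 0.09) for Nutlin-3a in siControl and -1.46 (SE 0.09, DESeq2 adjusted p = 2.87e-55) for siRFX7 in DMSO. With Nutlin-3a present, siRFX7 lowered PHGDH further (log2 fold change -0.70, SE 0.09, DESeq2 adjusted p = 5.89e-12) in the authors' deposited table.

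PSAT1 (ENSG00000135069, chr9:78297143-78330093, plus strand), the transaminase of the second step, had means of 15692 normalized counts in the control, 5979 under siRFX7 alone, 5097 under Nutlin-3a alone and 4202 under both. The 3 treated groups kept 38.1%, 32.5% and 26.8% of the control level, so they lay much closer to one another than to the control. The siRFX7 log2 fold change in the authors' deposited tables was -1.39 (SE 0.04) in DMSO and -0.28 (SE 0.04, DESeq2 adjusted p = 2.00e-09) in Nutlin-3a.

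PSPH (ENSG00000146733, chr7:56011051-56051604, minus strand), the phosphatase of the last step, did not move with the other 2 enzymes of the pathway. Its mean was 1901 normalized counts in the control, 1852 under Nutlin-3a alone, 1706 under siRFX7 alone and 2159 under both, so the highest and the lowest group were those with siRFX7. For Nutlin-3a in siControl the authors' deposited table gave a log2 fold change of -0.04, with a 95% interval of -0.15 to 0.07. Under siRFX7 the drug raised PSPH (log2 fold change 0.34, SE 0.06, DESeq2 adjusted p = 1.18e-08) in the authors' deposited table. siRFX7 lowered it in DMSO (log2 fold change -0.16, SE 0.06, DESeq2 adjusted p = 0.0241) in the authors' deposited table, a call lost with equal group totals (-0.10, adjusted p = 0.194 by the z test) or with median centring (-0.12, adjusted p = 0.0935 by the z test). In Nutlin-3a, siRFX7 raised it (log2 fold change 0.22, SE 0.06, DESeq2 adjusted p = 0.000656), per the authors' deposited table.

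SHMT2 (ENSG00000182199, chr12:57229327-57234935, plus strand), the mitochondrial serine hydroxymethyltransferase, had means of 9924 normalized counts in the control, 6621 under Nutlin-3a alone, 5766 under siRFX7 alone and 4474 under both. Here siRFX7 alone gave the lower level of the single treatments (log2 difference 0.20, SE 0.05), the reverse of PHGDH (-0.95, SE 0.09). Its siRFX7 log2 fold change was -0.78 (SE 0.05) in DMSO and -0.57 (SE 0.05) in Nutlin-3a, both called in the authors' deposited tables. SHMT1 (ENSG00000176974, chr17:18327860-18363563, minus strand), the cytosolic form, had means of 1945 and 1709 normalized counts in DMSO with siControl and siRFX7, and of 846 and 826 in Nutlin-3a. Its levels fell into a DMSO pair and a Nutlin-3a pair. Nutlin-3a lowered SHMT1, with log2 fold changes of -1.20 (SE 0.07) in siControl and -1.05 (SE 0.07) in siRFX7, per the authors' deposited tables. Between the 2 siRNAs, the log2 difference in Nutlin-3a was -0.03, with a 95% interval of -0.18 to 0.11, in the authors' deposited table. In DMSO it was -0.19 (SE 0.07, DESeq2 adjusted p = 0.0284) in the authors' deposited table, a call lost with equal group totals (-0.13, adjusted p = 0.159 by the z test) or with median centring (-0.15, adjusted p = 0.0864 by the z test).

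MTHFD2 (ENSG00000065911, chr2:74198562-74217565, plus strand), the mitochondrial methylenetetrahydrofolate dehydrogenase and cyclohydrolase, had means of 18199 normalized counts in the control, 9549 under siRFX7 alone, 8190 under Nutlin-3a alone and 6848 under both. The treated groups thus held 52.5%, 45.0% and 37.6% of the control level, in that order. MTHFD1L (ENSG00000120254, chr6:150865549-151101887, plus strand), which releases formate, had means of 5323 normalized counts in the control, 3821 under Nutlin-3a alone, 3511 under siRFX7 alone and 2970 under both. It kept 55.8% of the control level under both treatments, the largest share among the 8 genes with that order of groups. Their siRFX7 log2 fold changes in DMSO were -0.93 (SE 0.04) for MTHFD2 and -0.60 (SE 0.04) for MTHFD1L in the authors' deposited table, and both genes were also called lower in Nutlin-3a. ALDH1L2 (ENSG00000136010, chr12:105019784-105084577, minus strand) had only 20.7 to 26.9 normalized counts per group and was called in no comparison. At that depth its siRFX7 log2 fold change in DMSO, 0.07 in the authors' deposited table, had a 95% interval of -0.65 to 0.78, which holds the value of MTHFD1L but not those of SHMT2 and MTHFD2.

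PCK2 (ENSG00000100889, chr14:24094053-24110598, plus strand) had means of 2762 normalized counts in the control, 784 under siRFX7 alone, 344 under Nutlin-3a alone and 293 under both. These are 28.4%, 12.4% and 10.6% of the control level, so the 2 Nutlin-3a groups lay close together. Its log2 fold change for Nutlin-3a in siControl, -3.01 (SE 0.08) in the authors' deposited table, was the largest fall among the 10 genes in any of the 4 comparisons. siRFX7 lowered PCK2, with log2 fold changes of -1.82 (SE 0.07) in DMSO and -0.23 (SE 0.09, DESeq2 adjusted p = 0.0468) in Nutlin-3a, per the authors' deposited tables. The second of these calls was lost with equal group totals (-0.20, adjusted p = 0.0863 by the z test).

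ASNS (ENSG00000070669, chr7:97852118-97872542, minus strand) had means of 237 normalized counts in the control, 60.2 under siRFX7 alone, 50.7 under Nutlin-3a alone and 23.9 under both. The combined level was 9.93-fold below the control. Levels under siRFX7 alone and Nutlin-3a alone did not differ beyond their error (log2 difference -0.25, SE 0.22). siRFX7 lowered ASNS, with log2 fold changes of -1.98 (SE 0.19, DESeq2 adjusted p = 2.85e-22) in DMSO and -1.09 (SE 0.26, DESeq2 adjusted p = 0.000233) in Nutlin-3a, per the authors' deposited tables. This count is uncertain, because in GENCODE 29 the locus AC079781.5 lies on the same strand and shares 1683 of the 1752 coding bases of ASNS (96.1%). AC079781.5 had group means of 3.34 normalized counts in the control, 12.9 under Nutlin-3a alone, 9.50 under siRFX7 alone and 10.1 under both, so it was lowest where ASNS was highest. How reads that fall in both were counted is not given in the sources used here.

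**Figure D2:**
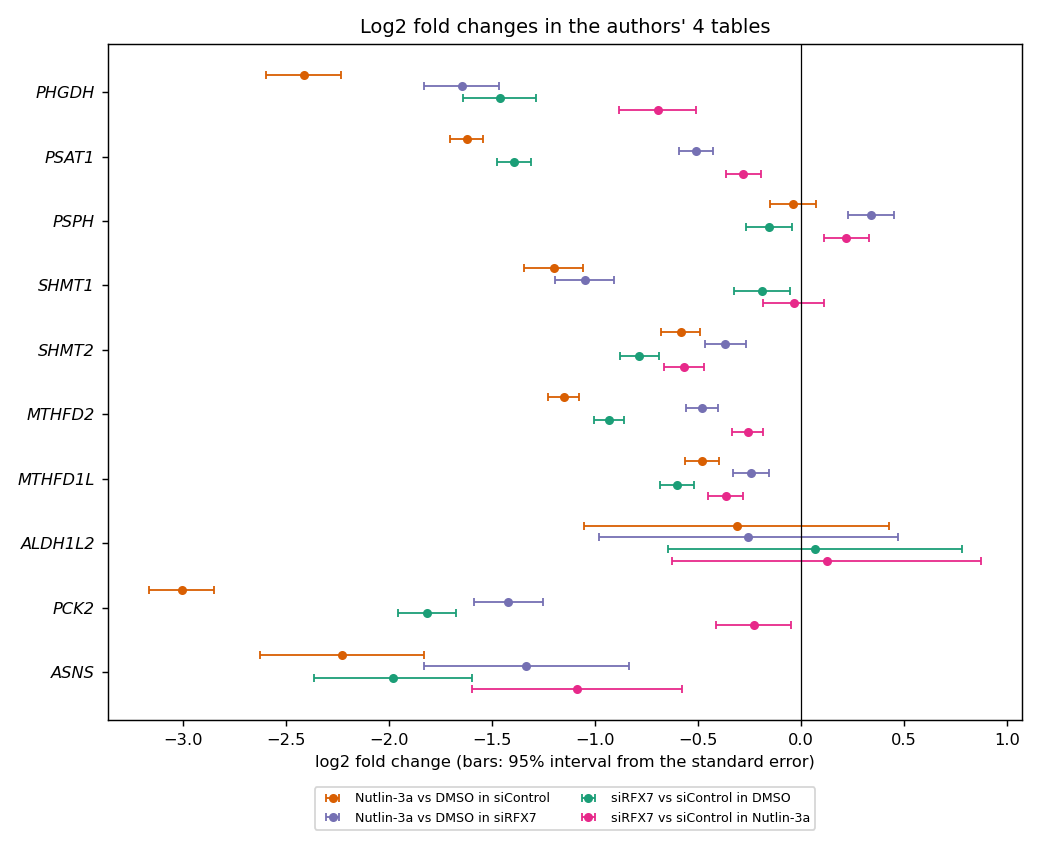
Log2 fold changes of the 10 genes (horizontal axis) in the authors' 4 tables, with bars of the 95% interval from the SE. PCK2 reaches -3.01 for Nutlin-3a in siControl, and ALDH1L2 has intervals that cross 0 in all 4 comparisons.

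The question for the cytosolic and mitochondrial enzymes was whether members of an isozyme pair moved alike. In the SHMT and MTHFD pairs siRFX7 lowered the mitochondrial member, while the cytosolic partner was lowered by less, not called or raised. SHMT2 minus SHMT1 was -0.60 (SE 0.08) on the log2 scale in DMSO and -0.53 (SE 0.09) in Nutlin-3a. MTHFD1, the cytosolic enzyme that carries out the reactions that MTHFD2 and MTHFD1L share between them, had a siRFX7 log2 fold change of 0.09 in DMSO in the authors' deposited table, with a 95% interval of -0.04 to 0.22. In Nutlin-3a, siRFX7 raised MTHFD1 (log2 fold change 0.22, DESeq2 adjusted p = 0.00429) in the authors' deposited table. MTHFD1L minus MTHFD1 was accordingly -0.69 (SE 0.08) in DMSO and -0.59 (SE 0.08) in Nutlin-3a, and MTHFD2 minus MTHFD1 was -1.02 (SE 0.08) and -0.48 (SE 0.08). The mitochondrial MTHFD2L, which is in none of these pairs, was not called under siRFX7 in the authors' deposited tables. Its siRFX7 log2 fold change was 0.04 (95% interval -0.21 to 0.28) in DMSO and 0.14 (-0.11 to 0.40) in Nutlin-3a. The pattern therefore holds for the SHMT and MTHFD pairs named here and not for every mitochondrial MTHFD enzyme. MTHFD1 is the cytosolic side of both MTHFD pairs. The GOT pair, given below, went the other way.

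Nutlin-3a gave another picture. In siControl it lowered SHMT1 more than SHMT2, with SHMT2 minus SHMT1 at 0.62 (SE 0.09) on the log2 scale. It lowered MTHFD1 (-0.62) and MTHFD1L (-0.48) by similar amounts in the authors' deposited table, their difference being 0.15 (SE 0.08), and it lowered MTHFD2 more than MTHFD1, a difference of -0.53 (SE 0.08). In siRFX7 cells MTHFD2 minus MTHFD1 was 0.01 (SE 0.08). The differences between genes are given with their error and were not tested. In the pair of aspartate transaminases, which supply aspartate for asparagine, the cytosolic GOT1 and not the mitochondrial GOT2 was the lower one. GOT1 fell under siRFX7 in DMSO (-0.43) while GOT2 rose (0.12), both called in the authors' deposited table. The gene for the cytosolic PCK1 was not listed, and ALDH1L1, the cytosolic partner of ALDH1L2, had means of 1.34 normalized counts in the control, 12.2 under Nutlin-3a alone, 4.43 under siRFX7 alone and 31.2 under both. The ALDH1L1 mean with Nutlin-3a in siControl was 4.05 times a floor of 3 counts for the group mean. Its log2 fold change in that comparison had a 95% interval of 1.54 to 4.83.

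By compartment alone the 10 genes did not separate under siRFX7. In DMSO 4 of 5 mitochondrial members and 5 of 5 cytosolic members were called lower, against 15.5% of all genes, with median log2 fold changes of -0.78 and -1.39. The cytosolic calls of PSPH and SHMT1 were lost under both rescalings. In Nutlin-3a 4 of 5 mitochondrial and 3 of 5 cytosolic members were called lower, against 13.6% of all genes, with medians of -0.26 and -0.28. The cytosolic members include PHGDH, PSAT1 and ASNS, which have no mitochondrial counterpart among the genes compared.

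**Figure D3:**
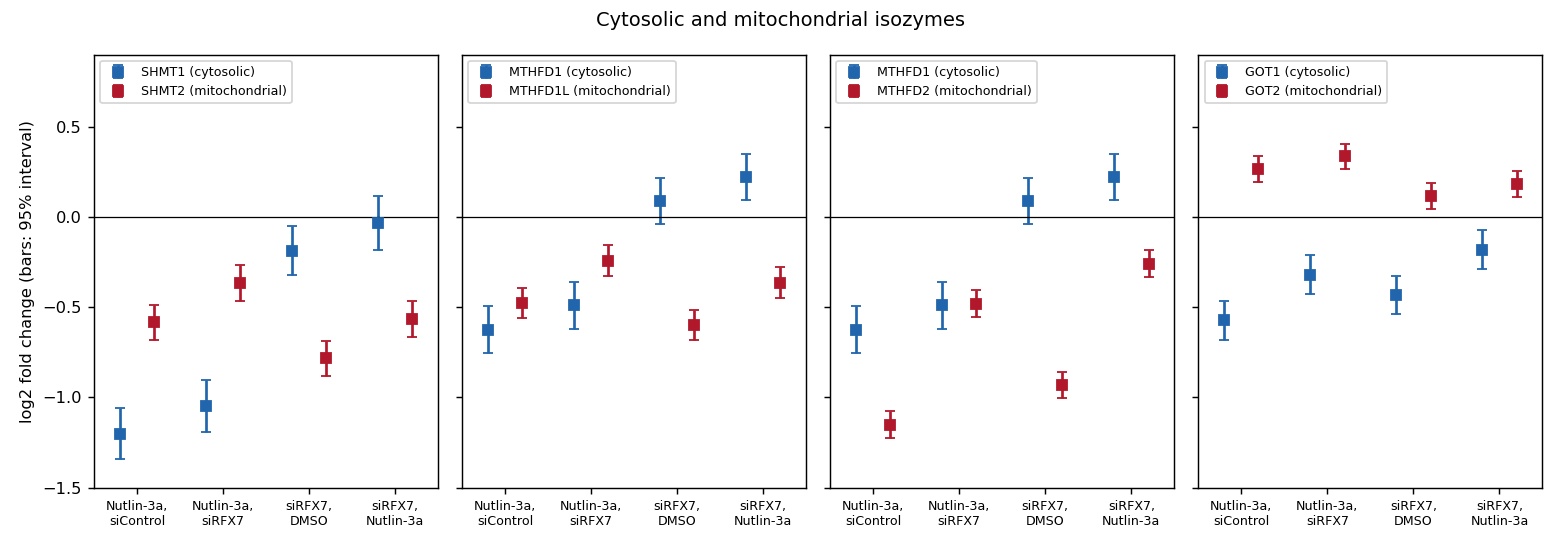
Log2 fold changes (vertical axis, bars of the 95% interval) of cytosolic (blue) and mitochondrial (red) isozymes in the 4 comparisons. In the SHMT and MTHFD panels the red points lie below the blue ones under siRFX7, and in the GOT panel the blue points lie below the red ones.

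The level under both treatments was then set against the product of the 2 single changes. The measure was the interaction, the Nutlin-3a log2 fold change in siRFX7 minus that in siControl, tested by a two-sided z test with Benjamini-Hochberg adjustment over 23195 genes. It was called above 0 for 7 of the 10 genes and below 0 for none, against 3.28% and 2.92% of all genes called above and below. All 10 values were above 0, with a median of 0.52, where the median over all genes was 0.003. With equal group totals, 583 genes were called above and 792 below 0, against 760 and 677 as deposited. Both single changes are measured from the same siControl DMSO libraries, so the error of those libraries enters both, and how far this and the choice of genes bear on the interaction was not tested.

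PCK2 had the largest interaction, 1.59 (SE 0.12, z test adjusted p = 1.77e-38). The product of its single changes would be 97.6 normalized counts, and the measured mean was 293. PSAT1 followed with 1.11 (SE 0.06, z test adjusted p = 2.80e-74), with 4202 normalized counts where the product would be 1942. For PHGDH the interaction was 0.77 (SE 0.13, z test adjusted p = 5.07e-07) and for MTHFD2 it was 0.67 (SE 0.05, z test adjusted p = 2.50e-32). In these 4 genes each treatment lowered the level by less in the presence of the other than alone, and the level was still lowest with both. Values were smaller for PSPH (0.38), MTHFD1L (0.24) and SHMT2 (0.22), and the call for SHMT2 was lost with equal group totals (0.19, adjusted p = 0.0939 by the z test). ASNS had 0.89 (SE 0.32, z test adjusted p = 0.079, 95% interval 0.26 to 1.53), which missed the threshold. SHMT1 had 0.15, with a 95% interval of -0.05 to 0.35.

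**Figure D4:**
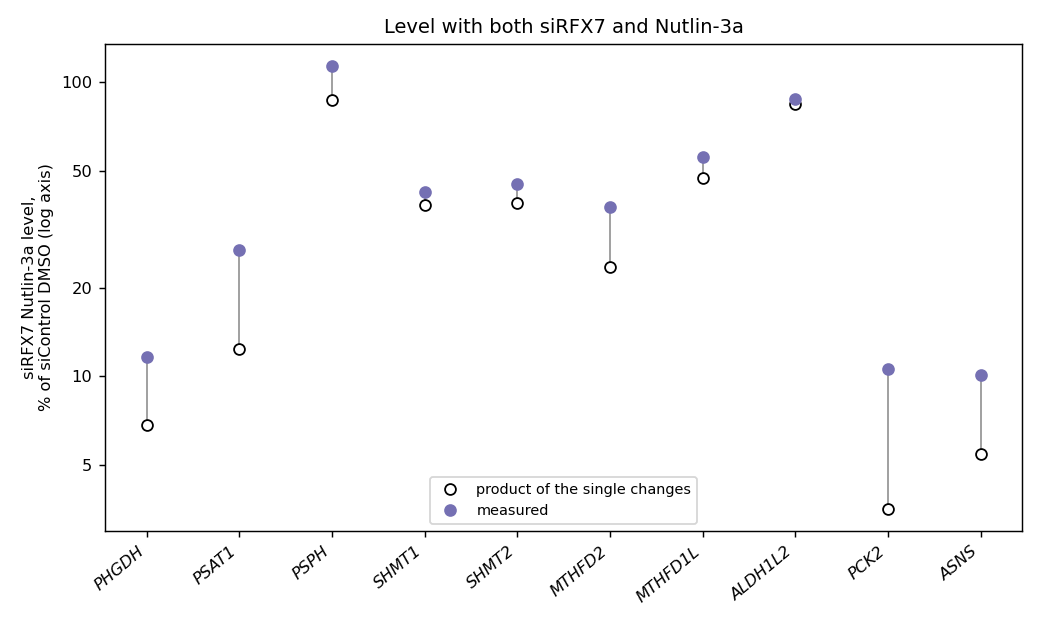
Level in siRFX7 with Nutlin-3a as a percentage of siControl DMSO (logarithmic axis) for each gene, measured (filled) and as the product of the 2 single changes (open). The filled point lies above the open one for all 10 genes and farthest above it for PCK2.

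The spread between libraries that the authors' model assigned, as recovered from the SEs, was small for most members. It is a model value and not a spread observed in single libraries, whose values were not used. The biological coefficient of variation was 3.08% to 7.64% for the 8 genes other than ASNS (13.2%) and ALDH1L2 (24.1%), where the median over the 12463 genes that averaged at least 100 normalized counts was 6.40%. ASNS and ALDH1L2 are also the members with the fewest counts, so their folds carry the widest intervals.

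Other genes of the surrounding pathways moved less in one direction. Of 51 listed pathway genes outside the 10, siRFX7 in DMSO raised 12 and lowered 12 in the authors' deposited table, with a median log2 fold change of 0.01. Over all genes 13.5% were called higher and 15.5% lower, and the single lists hold only 4 to 10 listed genes each. The cytosolic one-carbon partners had 2 of 6 called higher and none lower, and the mitochondrial partners 2 higher and 2 lower of 8. Among the latter DLD, the dihydrolipoamide dehydrogenase of the glycine cleavage system, had a log2 fold change of -1.29 (DESeq2 adjusted p = 3.86e-154) and DMGDH, the mitochondrial dimethylglycine dehydrogenase, one of -1.80, both called lower in the authors' deposited table. SLC25A32, the mitochondrial folate carrier, rose by a log2 value of 0.17 in the authors' deposited table. The glutamine and proline list had 2 of 10 higher and 3 lower, among them PYCR1, a mitochondrial enzyme of proline synthesis, at -0.59 in the authors' deposited table. PYCR1 also had an interaction above 0 (0.35, z test adjusted p = 1.28e-06). The aspartate and asparagine list had 2 of 4 higher and 2 lower. The purine list had 1 of 6 higher and 2 lower, GART at -0.39 and PFAS at -0.47 in the authors' deposited table. The methionine list had 1 of 7 higher and 1 lower, the folate uptake list 2 of 5 higher and none lower, and the glycolysis list 2 of 5 lower and none higher.

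Nutlin-3a in siControl raised 15 and lowered 17 of 52 listed pathway genes in the authors' deposited table, with a median of -0.08, where 22.0% of all genes were called higher and 21.2% lower. The falls included TYMS (-0.89), the thymidylate synthase, and GGH (-2.32), which removes glutamates from folates, per the authors' deposited table. Both genes had nearly the same Nutlin-3a log2 fold change under siRFX7 (-0.82 and -2.30) in the authors' deposited table, and their siRFX7 log2 fold changes in DMSO were 0.15 and 0.00.

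**Figure D5:**
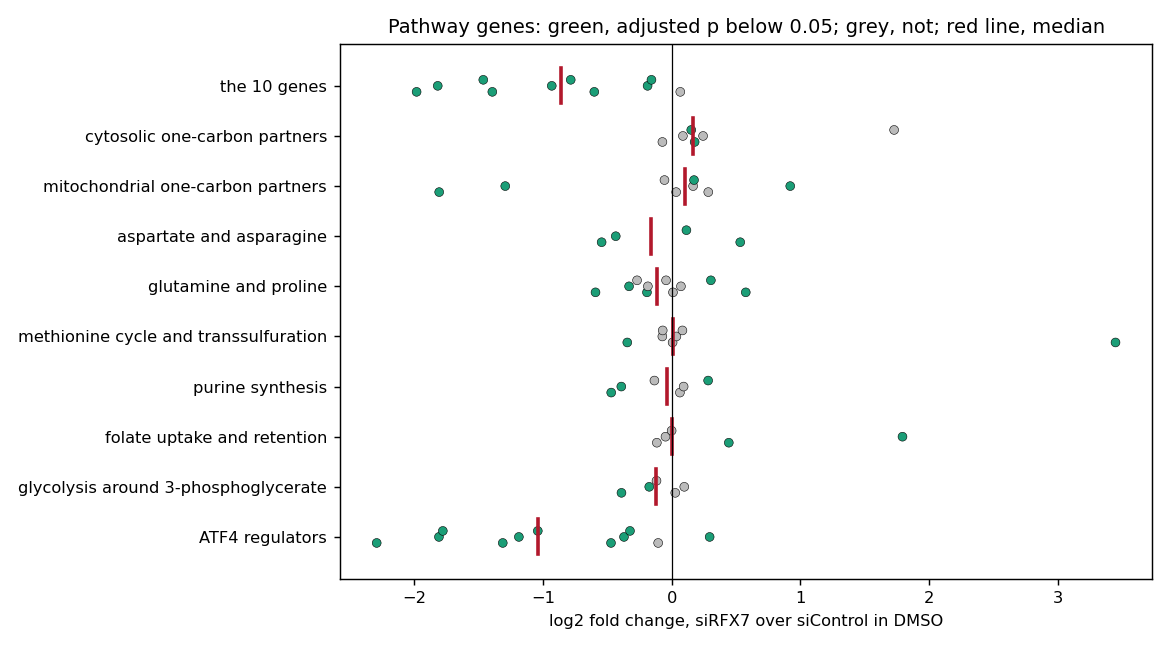
Log2 fold change for siRFX7 over siControl in DMSO of each gene (points, green where called) by list, with the list median as a red line. The 10 genes have their median at -0.86 and the ATF4 list at -1.04, while the partner lists have medians near 0.

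ATF4 itself had means of 14166 normalized counts in the control, 6895 under siRFX7 alone, 5128 under Nutlin-3a alone and 4717 under both. PHGDH, PSAT1, SHMT1, MTHFD2, PCK2 and ASNS had the same order of groups, while SHMT2 and MTHFD1L had the single treatments in reverse order. The share of all genes with this full order was not counted. In the authors' deposited tables the siRFX7 log2 fold change of ATF4 was -1.04 in DMSO and -0.12 (DESeq2 adjusted p = 0.254) with Nutlin-3a. The interaction of ATF4 was 0.92 (SE 0.11, z test adjusted p = 4.74e-15). Of 11 genes that regulate or report the ATF4 pathway, siRFX7 in DMSO lowered 9 and raised 1 in the authors' deposited table, against 15.5% and 13.5% of all genes. In Nutlin-3a it lowered 3 and raised 2, against 13.6% and 15.0% of all genes. The drug did not move this list in a single direction. In siControl, Nutlin-3a raised 5 of the 11 and lowered 5, against 22.0% and 21.2% of all genes. In siRFX7 the drug raised 5 and lowered 2, against 21.7% and 19.7% of all genes. With Nutlin-3a, siRFX7 lowered 7 members by call, while ATF4 RNA was not called. A call in one gene and none in another does not show that they differ, and the difference between them was not tested.

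The profile over the 4 groups was compared among 12455 genes by the Euclidean distance of centred log2 group means. Nearest to the median profile of the 10 genes were EIF4EBP1 (distance 0.097), SLC38A1 (0.13), the pseudogene MTHFD2P7 (0.13), POPDC3 (0.16) and MARS (0.17). EIF4EBP1 encodes an inhibitor of cap-dependent translation, SLC38A1 a neutral amino acid transporter and MARS the methionyl-tRNA synthetase. Nearest to ASNS were UPP1 (0.56), SYNE2 (0.74), SLC7A11 (0.88), CXorf57 (0.89) and UNG (0.93), all farther away than the former. SLC7A11 is the cystine transporter. The likeness rests on 4 group means and is a description.

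Pseudogenes of the members may take up some of their reads, since the handling of reads with several matches is not given in the sources used here. PSAT1P3 had means of 1240 normalized counts in the control, 434 under Nutlin-3a alone, 446 under siRFX7 alone and 323 under both. For MTHFD2P7 the same groups had 1167, 546, 597 and 441. Both pseudogenes were highest in the control and lowest under both treatments, as their parent genes were. PSPHP1, with 165, 217, 216 and 251 in these groups, was lowest in the control. On the opposite strand, SLC4A5 shares 1324 of the 4870 exonic bases of MTHFD2 (27.2%) and had a mean of 4.47 normalized counts. C12orf45, also on the opposite strand, shares 145 of the 2771 coding bases of ALDH1L2 (5.23%). The mean of C12orf45 was 916 normalized counts, where ALDH1L2 had 20.7 to 26.9 per group. The strand setting of the counting is not given either.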

How the data were processed

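PolyA RNA of 12 HCT116 libraries, 3 in each of 4 groups, was sequenced. Per the submitters' processing notes, the tools included Trimmomatic 0.39, cutadapt 2.10, SAMtools 1.10, featureCounts 1.6.5 and DESeq2 1.20.0, with build hg38. The aligner, the annotation release and the strand setting are not given in the sources used here. The deposited values were 4 tables of the authors, one per comparison. Per the file headers, they hold a signal (the mean normalized count over libraries) and fold changes with SEs in log2 units. The deposited statistic, a score, equalled the fold change over its SE. The p-value columns are the authors', and recomputing Benjamini-Hochberg over each deposited table's rows gave the same adjusted p-values. Mean normalized counts summed to 26801484 over genes. The depth of single libraries is unknown.

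The direction of the siRFX7 tables, siRFX7 over siControl, was set by the closure of the 4 log2 fold changes, within 1.27e-14. Group means followed from the overall mean and the fold changes, given equal group sizes, and dispersions from the SEs. The 4 dispersion estimates of a member lay within 4.43% of their mean. The interaction test treats the SEs as known. Where the lower group mean of a comparison is at most 3 counts, the higher mean is given as a multiple of that floor. The floor covers counting error only, and the error of the higher mean is not included. Calculations used Python 3.11.15, numpy 2.4.6, pandas 2.3.3 and scipy 1.17.1, and the recovery and the z test were tested on simulated data. Gene positions are those of GENCODE 29 on GRCh38, and 23164 of 23195 identifiers were found there. The members, the gene lists and the tests were chosen with earlier results of these data known. Genes named are the members, their isozyme partners, genes of the listed pathways, RFX7 and cell type markers, the 5 nearest profiles to ASNS and to the member median among genes with a mean of at least 100, and pseudogenes named after a member. Some genes that share exonic bases with a member are named too. Alternatives were a stricter adjusted p of 0.01, a minimum absolute log2 value of 0.58, 2 rescalings and a minimum mean count of 10.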

Additional observations from a re-analysis of the deposited data

Results flagged for a closer look

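The interaction was tested by the two-sided z test with Benjamini-Hochberg adjustment over 23195 genes. By this test the Nutlin-3a response differed between siRFX7 and siControl for 7 of the 10 genes, all above 0. Of all genes, 3.28% were called above 0 and 2.92% below. On the log2 scale the interactions of the 7 genes were 1.59 for PCK2, 1.11 for PSAT1, 0.77 for PHGDH, 0.67 for MTHFD2, 0.38 for PSPH, 0.24 for MTHFD1L and 0.22 for SHMT2. The call for SHMT2 was lost with equal group totals (adjusted p = 0.0939 by the z test). The same test called GOT1 (0.25) and ATF4 (0.92). For PSPH the sign is the same but the levels are not: its 4 group means lie between 1706 and 2159 normalized counts, and it was called higher with Nutlin-3a under siRFX7. With 3 libraries in each group, no sample was tested as an outlier.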

How the results depend on the processing

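Under both rescalings, 94 of the 100 values of the members (10 genes, 5 measures, 2 rescalings) kept their direction and their side of the threshold, 6 lost their call and none changed direction. The 6 lost calls are those of PSPH and SHMT1 (siRFX7 in DMSO, both rescalings), PCK2 (siRFX7 in Nutlin-3a) and SHMT2 (interaction). Requiring an absolute log2 value of at least 0.58 left 5198 and 4830 genes for Nutlin-3a in siControl and siRFX7, 1547 and 1482 for siRFX7 in DMSO and Nutlin-3a, and 544 for the interaction. Under the same minimum, 4 of the 10 genes were called for Nutlin-3a in siRFX7, 2 for siRFX7 in Nutlin-3a and 4 for the interaction, since a minimum fold removes small changes by construction. An adjusted p below 0.01 left 863 genes for the interaction. No paired analysis was possible because the tables hold group statistics with no values per library, and leaving out single replicates was not run for the same reason. Low counts limit ALDH1L2 and ASNS.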

Other observations

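Some genes next to the 10 in metabolism were near the floor in one group. CBS, which starts the conversion of homocysteine to cysteine, had means of 0.668 normalized counts in the control, 38.5 under Nutlin-3a alone, 7.28 under siRFX7 alone and 105 under both. Its mean was 12.8 times a floor of 3 counts with Nutlin-3a in siControl and 2.43 times that floor with siRFX7 in DMSO. GLS2, the liver-type glutaminase and a known p53 target, was at or under that floor in both DMSO groups. With Nutlin-3a its means were 8.78 and 17.9 times the floor in siControl and siRFX7. The log2 fold changes of GLS2 had 95% intervals of 2.11 to 4.50 and 3.37 to 5.84. FOLR1, a folate receptor, was higher with siRFX7 in the authors' deposited tables, by a log2 value of 1.79 without Nutlin-3a and of 1.48 with it.

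MAT2A, which makes S-adenosylmethionine, was lower with Nutlin-3a in the authors' deposited tables (log2 fold change -0.68 with siControl, -0.31 with siRFX7), and its interaction was 0.38. PRODH, the proline dehydrogenase, had Nutlin-3a log2 values of 3.23 with siControl and 2.65 with siRFX7 in the authors' deposited tables, both called higher. ASRGL1, which hydrolyses asparagine, was called lower in the same comparisons of the authors' deposited tables (-1.32 and -1.25), and PC, the pyruvate carboxylase, was called higher (0.68 and 0.57).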
